A study of Mus musculus with 24 samples.

Results

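Dbp, Tef and Hlf encode the PAR bZIP factors, basic leucine zipper transcription factors with a region rich in proline and acidic residues, and Nfil3 (also called E4bp4) encodes a related leucine zipper repressor. These 4 genes were taken by symbol from the 54532 genes of the count table, and all 4 were among the 18065 genes with enough counts to be tested. The RNA was that of the RPE, the retinal pigment epithelium, a sheet of cells behind the photoreceptors, of wild-type 129S1/SvlmJ mice on the Rpe65 Leu450 background. The mice had a standard diet and 12 h of light a day, with light onset at 7 am. At 0, 1, 3, 5, 6, 9, 15 and 16 h after light onset 3 mice were taken, 1 library each and 24 libraries in all, in a study of autophagy and lysosomal genes over the day. The 15 libraries of 1 h to 9 h, taken in the light, are called day here, the 6 libraries of 15 h and 16 h, taken in the dark, are called night, and the 3 libraries of 0 h belong to neither. Genotype, strain and diet were shared by all groups, and the hour is the only difference between them that the labels give. The labels give no mice in constant darkness, so responses to light and the output of an internal clock cannot be told apart.

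The 3 PAR bZIP factors bind a DNA element called the D-box and activate genes near it, and the product of Nfil3 binds the same element and represses. In the mammalian clock, the dimer of Arntl (Bmal1) and Clock activates Dbp through E-boxes, while Nr1d1 and Nr1d2 (Rev-erb alpha and beta) repress, and Ror factors activate, Nfil3 through the element called RORE. D-box genes known from liver, kidney and brain include enzymes of detoxification, fat handling and vitamin B6 metabolism.

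Libraries held 14073440 to 17492470 counts. All 8 RPE markers examined (Rpe65, Rlbp1, Lrat, Best1, Ttr, Rgr, Rdh5 and Mitf) were detected in every library, with a summed level of 32600 to 47700 CPM (counts per 1000000, after TMM scaling) in 22 of the 24 libraries, 51700 CPM in 6 h mouse 3 and 111000 CPM in 15 h mouse 3. The libraries of 15 h mouse 3 and 6 h mouse 3 also differed from the others in makeup. Ribosomal protein transcripts took 6.02% and 2.65% of their counts, against 1.28% to 1.86% in the other 22 libraries, and globin transcripts took 0.636% and 0.314%, against 0.0392% to 0.189%. Mitochondrial transcripts took 0.837% and 3.34%, against 3.84% to 6.81%. Results are therefore given for all 24 libraries and for the 22 libraries without this pair. Since the tissue was measured in bulk, fewer cells of a type and less RNA per cell cannot be told apart.

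The regulatory letters around the 4 genes are shown first, because the clock's elements are defined by sequence. Both strands of the RefSeq promoter windows (GRCm38.p6, 250 bases before to 50 after each annotated start) were searched for 5 motifs. These were the E-box CACGTG, the E-prime box CACGTT, the D-box TTANNTAA, the RORE core TAGGTCA and the cAMP response element TGACGTCA. The letter N stands for any base, so a match to the D-box pattern fixes its outer letters only. Such a match is labelled D-box below by that pattern alone and need not be a full D-box. Of 32851 promoter windows of all genes, 7.15% held the E-box, 4.68% the E-prime box, 6.0% the D-box, 2.61% the RORE core and 1.79% the cAMP response element. None of the matches printed below overlapped another. A match describes the letters and does not show that a factor binds.

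Dbp (ENSMUSG00000059824) lies at chr7:45705088-45710203 on the forward strand of GRCm38, the build called mm10, and GENCODE vM21 gives it 5 transcripts. Its RefSeq promoter window held none of the 5 motifs. An intron of Dbp was examined as well, because intronic E-boxes of this gene are known as sites of the clock's activator. A GENCODE transcript that retains this intron holds 1156 of its 1243 bases, at chr7:45707104-45708259, between the exon that ends at 45707016 and the exon that starts at 45708260. Within it lay 2 E-boxes, starting at 45707712 and 45707825, and an E-prime box between them starting at 45707774, read on the reverse strand. A match to the D-box pattern started at 45707212. Of 9346 transcripts of that class with at least 1156 bases, 16.6% held at least 1 E-box in their first 1156 bases and 1.82% held at least 2. Those first bases can be exon as well as intron, so they differ in kind from the Dbp stretch. The stretch at chr7:45707692-45707850, forward strand, with the E-boxes and the E-prime box in capitals, and the D-box site at chr7:45707201-45707230 read as follows.
Dbp intron, E-boxes: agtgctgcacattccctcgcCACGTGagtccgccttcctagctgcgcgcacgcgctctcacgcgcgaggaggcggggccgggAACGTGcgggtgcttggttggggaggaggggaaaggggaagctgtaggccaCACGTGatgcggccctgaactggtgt
Dbp intron, D-box: cttagaacaccTTAGTTAActggagagtac

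Tef (ENSMUSG00000022389) lies at chr15:81802421-81826863, forward strand, with 10 annotated transcripts and 2 RefSeq promoter windows, and each window held an E-box. The upstream window, whose start is at 81802673, held an E-box at 81802546 and a match to the D-box pattern at 81802499, both inside an exon of another Tef transcript. The downstream window, whose start is at 81811414, held an E-box at 81811276 that lay in no exon of the gene. The 250 bases before that start, at chr15:81811164-81811413, are shown with the E-box in capitals, after the pair of sites of the upstream window, at chr15:81802534-81802563 and chr15:81802488-81802517.
Tef upstream E-box: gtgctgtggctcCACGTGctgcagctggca
Tef upstream D-box: cctttgcaaagTTAGATAAcaggccgggtt
Tef downstream promoter: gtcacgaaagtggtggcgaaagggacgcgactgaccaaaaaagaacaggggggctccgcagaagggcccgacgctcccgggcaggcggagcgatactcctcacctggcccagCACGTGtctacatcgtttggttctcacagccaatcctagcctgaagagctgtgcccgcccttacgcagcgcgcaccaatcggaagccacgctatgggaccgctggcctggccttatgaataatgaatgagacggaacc

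Hlf and Nfil3 each held 1 match, and neither held an E-box in its window. Hlf (ENSMUSG00000003949, chr11:90336536-90390895, reverse strand, 6 transcripts) held a cAMP response element that ended 1 base before the RefSeq start at 90390917. Nfil3 (ENSMUSG00000056749, chr13:52967209-52981073, reverse strand, 1 transcript) held a RORE core, on the strand opposite to the gene, 5 bases before the RefSeq start at 52981039 and inside the first exon as GENCODE draws it. Both sites are written on the strand of the gene, at chr11:90390908-90390937 and chr13:52981033-52981062, with the motif in capitals. For Nfil3 the capitals are the reverse complement of TAGGTCA.
Hlf cAMP response element: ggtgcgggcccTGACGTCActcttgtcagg
Nfil3 RORE core: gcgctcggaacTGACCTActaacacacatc

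All 4 genes had a 24 h component, meaning that a cosine with a period of 24 h improved the fit, and their fitted peaks fell at different hours. Dbp peaked first, in the middle of the light phase at 7.5 ± 0.4 h after light onset, with a peak-to-trough ratio of 1.63 ± 0.18 on the log2 scale, or 3.1-fold (jackknife SE over libraries). Tef peaked at 10.3 ± 0.6 h with a log2 ratio of 0.89 ± 0.09, or 1.85-fold, and Hlf at 10.7 ± 0.8 h with a log2 ratio of 0.46 ± 0.09, or 1.38-fold. The repressor Nfil3 peaked in the dark phase at 19.4 ± 0.4 h, with a log2 ratio of 1.43 ± 0.25, or 2.7-fold. Adjusted p-values from edgeR's quasi-likelihood test were 3.28e-06 for Dbp, 0.000309 for Tef, 0.00073 for Nfil3 and 0.0487 for Hlf. Among all genes tested, 1.67% were called. In the 22 libraries all 4 were again called, where 6.12% of all genes were, and Hlf had an adjusted p of 9.86e-05. With single libraries left out of the 24, the calls on Dbp, Tef and Nfil3 held in all 24 cases. The call on Hlf held in 3 of 24, without 6 h mouse 3, 15 h mouse 3 or 16 h mouse 1, and its adjusted p reached 0.149 without 0 h mouse 1.

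Variation between any of the 8 times, tested with a mean per time, was called for 3 of the 4 genes, against 1.08% of all genes. The adjusted p was 0.00157 for Dbp, 0.00955 for Tef and 0.0253 for Nfil3, and 0.199 for Hlf. DESeq2 called all 4 (adjusted p = 0.0454 for Hlf), and 10.7% of all genes. In the 22 libraries all 4 were called, but 15.6% of all genes were, and Hlf had an adjusted p of 0.000252. The Nfil3 call did not hold in every set of libraries: its adjusted p reached 0.0709 without 9 h mouse 1, and it was also above 0.05 without 9 h mouse 3, 16 h mouse 1 or 3, or any of the 3 mice of 5 h.

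**Figure D1:**
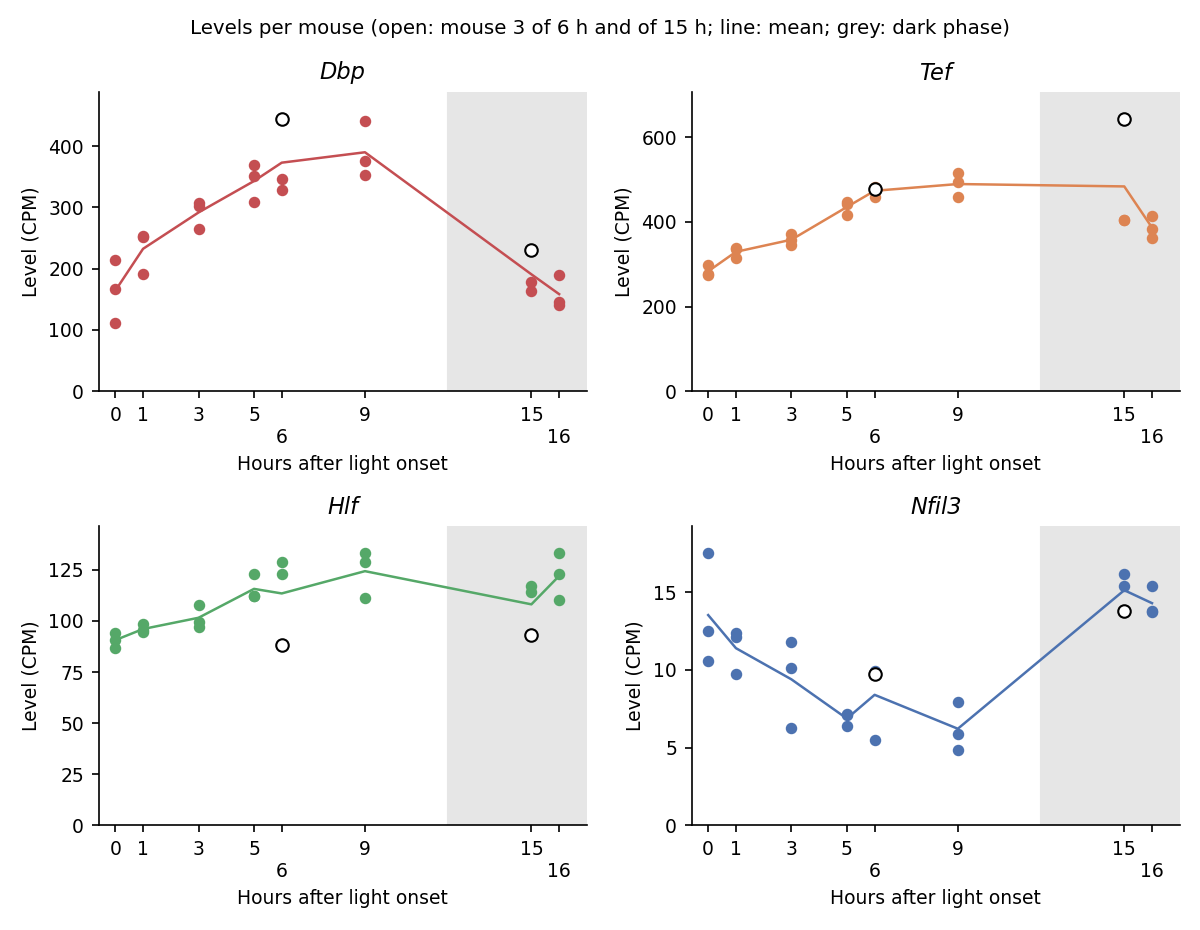
Level of each gene in CPM (vertical axes, each from 0) against hours after light onset, with 1 point per mouse, the mean of 3 mice as a line, the dark phase in grey and the pair of libraries that differed in makeup as open circles. Dbp had 140 to 189 CPM at 16 h and 353 to 441 CPM at 9 h, and Nfil3 took the opposite course, with 13.7 to 15.4 CPM at 16 h and 4.83 to 7.94 CPM at 9 h.

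Dbp, the most strongly varying of the 3 activators, was measured from 1848 to 7063 reads per library. Its levels were 111, 167 and 214 CPM at 0 h, 252, 191 and 254 CPM at 1 h, and 307, 303 and 265 CPM at 3 h. They were 369, 352 and 308 CPM at 5 h, 329, 346 and 444 CPM at 6 h, and 441, 353 and 376 CPM at 9 h. They were 164, 178 and 230 CPM at 15 h and 189, 146 and 140 CPM at 16 h. From highest to lowest mean the times ran 9 h (390 ± 45.8 CPM, SD, n = 3), 6 h, 5 h, 3 h, 1 h, 15 h, 0 h and 16 h (158 ± 26.5 CPM). The 3 values of 3 h lay below those of 5 h and above those of 1 h without overlap, and the other neighbours in this order overlapped. The highest value of 6 h and the highest of 15 h came from the pair of libraries that differed in makeup, and without them the means were 337 CPM at 6 h and 171 CPM at 15 h.

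The reads of Dbp carry no strand, and 18.0% of its 2993 exonic bases overlap Sphk2, a sphingosine kinase gene on the opposite strand. Reads in that overlap cannot be assigned to one gene. Sphk2 was the less abundant of the pair, with means of 6.59 to 13.4 CPM per kb of exon over the 8 times, where Dbp had 52.8 to 130 CPM per kb. Its time course also differed, with its highest mean, 55.9 ± 5.25 CPM, at 15 h and its lowest, 27.4 ± 3.3 CPM, at 5 h (SD, n = 3 each).

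Tef, the second activator, changed less than Dbp and kept a high level into the night. It had 275, 276 and 299 CPM at 0 h, 336, 314 and 338 CPM at 1 h, and 346, 357 and 371 CPM at 3 h. It had 416, 448 and 442 CPM at 5 h, 460, 483 and 478 CPM at 6 h, and 515, 460 and 494 CPM at 9 h. At 15 h the values were 404, 405 and 643 CPM, and at 16 h they were 414, 384 and 362 CPM. Each of the 0 h, 1 h, 3 h, 5 h and 6 h groups lay wholly above the one before it. The value of 643 CPM, from the 15 h library with the most ribosomal and globin reads, was the highest of all 24. Without it the mean of 15 h was 405 CPM in place of 484 ± 137 CPM, below the whole range of 5 h. Exons of Tef overlap a gene on the opposite strand, Gm17597, over 2.45% of 7867 bases.

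Hlf, the third activator, had the smallest changes. Its levels were 86.9, 94.0 and 90.9 CPM at 0 h, 98.3, 94.4 and 95.4 CPM at 1 h, and 99.7, 96.9 and 108 CPM at 3 h. They were 112, 123 and 112 CPM at 5 h, 123, 129 and 88.3 CPM at 6 h, and 129, 111 and 133 CPM at 9 h. They were 114, 117 and 93.3 CPM at 15 h and 133, 110 and 123 CPM at 16 h. The 3 values of 0 h lay below all values of 1 h, and the remaining neighbours in the order of means overlapped when all 24 libraries were used. The lowest value of 6 h and of 15 h came from the same pair of libraries that held the highest Dbp values of those times. Without that pair Hlf had a mean of 126 CPM at 6 h and 115 CPM at 15 h, and every value from 5 h to 16 h lay above every value from 0 h to 3 h.

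Nfil3, the repressor, was the least abundant, at 82 to 292 reads per library, so that counting error weighs more on it. It had 17.5, 12.5 and 10.6 CPM at 0 h, 12.1, 12.4 and 9.71 CPM at 1 h, and 11.8, 6.29 and 10.1 CPM at 3 h. It had 7.07, 6.37 and 7.18 CPM at 5 h, 5.5, 9.94 and 9.76 CPM at 6 h, and 5.88, 7.94 and 4.83 CPM at 9 h. Night values were 15.4, 16.2 and 13.8 CPM at 15 h and 15.4, 13.7 and 13.8 CPM at 16 h. The means ran from 15.1 ± 1.21 CPM at 15 h through 16 h, 0 h, 1 h, 3 h, 6 h and 5 h to 6.21 ± 1.58 CPM at 9 h (SD, n = 3), and each time overlapped its neighbour in this order. Its exons overlap no other annotated gene, and the same holds for Hlf.

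Per kilobase of exon, which allows levels of different genes to be compared, Dbp was the most abundant of the 4 at every time shown here. At 0 h Dbp had 54.8 CPM per kb, Tef 36.0, Hlf 13.6 and Nfil3 6.67. At 9 h Dbp had 130 CPM per kb, Tef 62.2, Hlf 18.6 and Nfil3 3.07. At 16 h Dbp had 52.8 CPM per kb, Tef 49.1, Hlf 18.3 and Nfil3 7.05, so that by this measure Dbp and Tef were close in level at 16 h and far apart at 9 h. The measure depends on the annotation. The 2993 exonic bases of Dbp include 1156 bases of the retained intron, and 18.0% of them overlap Sphk2.

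Night was set against day to ask which of the 4 genes differed between dark and light. Dbp was lower and Nfil3 higher at night, while Tef and Hlf were not called. Dbp had 140 to 230 CPM with a median of 171 in the 6 night libraries, against 191 to 444 CPM with a median of 329 in the 15 day libraries, and 14 of the 15 day values lay above the highest night value. Without the pair of libraries the night maximum was 189 CPM and all 14 remaining day values lay above it. Dbp fell by 0.88 ± 0.12 on the log2 scale at night (SE, adjusted p = 0.000412), where 0.509% of all genes were called lower.

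Nfil3 had 13.7 to 16.2 CPM with a median of 14.6 at night, against 4.83 to 12.4 CPM with a median of 7.94 by day, and all 15 day values lay below the lowest night value. It rose by 0.83 ± 0.14 on the log2 scale at night (SE, adjusted p = 0.00325), where 0.88% of all genes were called higher. In either direction 2 of the 4 genes were called, against 1.39% of all genes, and 2 were in the 22 libraries, against 4.63%. Markers of leukocytes, cells in which Nfil3 is also active, summed over all 8 genes of the list to 719 to 871 CPM at night and 736 to 911 CPM by day, and both maxima came from the pair of libraries that differed in makeup. Without that pair the sums were 719 to 783 CPM at night and 736 to 904 CPM by day. Of the 8 leukocyte markers 0 were called at night against day with 24 libraries and 2 with 22, and the part of such cells in the Nfil3 difference was not tested.

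Tef had 362 to 643 CPM with a median of 405 at night, against 314 to 515 CPM with a median of 442 by day, and the ranges overlapped. Its night difference was 0.07 ± 0.08 on the log2 scale (SE, adjusted p = 0.669) with all 24 libraries and -0.07 ± 0.04 (adjusted p = 0.447) with 22, so that its sign turned on the pair of libraries. Hlf had 93.3 to 133 CPM with a median of 115 at night, against 88.3 to 133 CPM with a median of 111 by day, and differed by 0.06 ± 0.07 on the log2 scale (adjusted p = 0.682).

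The first dark time was also set against the last light time, which asks what changed between 9 h and 15 h. Dbp fell and Nfil3 rose. Dbp had 164, 178 and 230 CPM at 15 h, against 441, 353 and 376 CPM at 9 h, with no overlap and a log2 difference of -1.03 ± 0.20 (SE, adjusted p = 0.0313). Nfil3 had 15.4, 16.2 and 13.8 CPM at 15 h, against 5.88, 7.94 and 4.83 CPM at 9 h, again with no overlap and a log2 difference of 1.28 ± 0.25 (adjusted p = 0.0325). These were 2 of the 4 genes, where 0.288% of all genes were called. Tef differed by -0.02 ± 0.13 (adjusted p = 0.948) and Hlf by -0.20 ± 0.13 (adjusted p = 0.356). In the 22 libraries Tef was called as well, at -0.29 ± 0.07 (adjusted p = 0.0413), which made 3 of 4 against 1.57% of all genes, and it was called under no other of the 33 alternatives run. Markers of choroid endothelium, the vessel lining next to the RPE, also differed between these times, with sums over 6 genes of 339 to 459 CPM at 15 h, against 534 to 865 CPM at 9 h and no overlap. Of these 6 genes 0 varied between the 8 times with 24 libraries and 4 with 22, and their part in the differences was not tested. Neither call on Dbp and Nfil3 held without 9 h mouse 1, 2 or 3, where the adjusted p for Dbp was 0.134, 0.0556 and 0.0564 and that for Nfil3 was 0.166, 0.0556 and 0.137.

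Each later time was then set against light onset, in 7 comparisons that share the same 3 libraries of 0 h. At 1 h and 3 h none of the 4 genes was called by edgeR, DESeq2 or limma-voom. At 1 h 1 of the 4 genes and at 3 h 3 of them had an unadjusted p under 0.05 in edgeR, where 711 of all 18065 genes did at 1 h. Among all genes 0.0111% were called at 1 h and 0% at 3 h, where limma-voom called 0 genes, DESeq2 called 5, and 551 had an unadjusted p under 0.05 in edgeR. Dbp differed from 0 h by 0.50 ± 0.20 on the log2 scale at 1 h and by 0.83 ± 0.20 at 3 h (adjusted p = 1 and 0.813).

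At 3 h Dbp had 265 to 307 CPM, against 111 to 214 CPM at 0 h, and was not called (adjusted p = 0.813 by edgeR). How many of all genes had no overlap between these times was not counted. Dbp was called higher than at light onset from 5 h on in the light phase. At 5 h it rose by 1.07 ± 0.20 on the log2 scale (SE, adjusted p = 0.0347), which made 1 of the 4 genes called by edgeR, where 0.111% of all genes were. DESeq2 called 3 of the 4 at 5 h, Dbp, Tef (adjusted p = 0.0036) and Nfil3 (adjusted p = 0.024), and 0.769% of all genes. At 6 h it rose by 1.18 ± 0.20 (adjusted p = 0.0155) and Tef by 0.74 ± 0.13 (adjusted p = 0.0195), 2 of the 4 genes against 0.166% of all. At 9 h Dbp rose by 1.25 ± 0.20 (adjusted p = 0.00568), Tef rose by 0.79 ± 0.13 (adjusted p = 0.00706) and Nfil3 fell by 1.12 ± 0.25 (adjusted p = 0.0436), which made 3 of 4 against 0.747% of all genes. Hlf differed by 0.46 ± 0.13 at 9 h (adjusted p = 0.104 by edgeR), and DESeq2 called all 4 genes at 9 h (adjusted p = 0.0388 for Hlf), against 1.99% of all genes.

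The 9 h calls on Dbp and Tef held when any 1 of the 24 libraries was left out, with adjusted p of at most 0.0407 and 0.0478. The 9 h call on Nfil3 held without 7 of the 24 libraries (0 h mouse 3, 3 h mouse 1 or 2, 6 h mouse 1 or 3, 15 h mouse 2 or 3) and was lost without any of the other 17, up to an adjusted p of 0.251 without 0 h mouse 1. The 5 h call on Dbp was lost without any of 10 libraries (0 h mouse 1 or 2, 1 h mouse 1 or 3, 3 h mouse 3, any mouse of 5 h, 6 h mouse 2, 9 h mouse 3), up to 0.196 without 5 h mouse 1. The 6 h call on Dbp was lost without 0 h mouse 1 or 2 or 6 h mouse 2 or 3, with adjusted p of 0.0923, 0.108, 0.0524 and 0.0719. That on Tef was lost without 0 h mouse 1, 2 or 3 or 6 h mouse 2 or 3, with adjusted p of 0.141, 0.159, 0.0768, 0.0783 and 0.0579.

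At night the members stood differently against light onset. At 15 h Tef was called, with 404, 405 and 643 CPM at 15 h, against 275, 276 and 299 CPM at 0 h, no overlap and a log2 difference of 0.77 ± 0.13 (SE, adjusted p = 0.0113), where 0.41% of all genes were called. Without 15 h mouse 3 the difference was 0.50 (adjusted p = 0.00288), and the call was lost without 0 h mouse 1 or 2 (adjusted p = 0.0782 and 0.0722). Dbp differed at 15 h by 0.22 ± 0.20 (adjusted p = 0.491) and Nfil3 by 0.16 ± 0.24 (adjusted p = 0.692). At 16 h no member was called by edgeR, DESeq2 or limma-voom, where edgeR called 0.116% of all genes, and 2 members, Tef at 0.45 ± 0.13 and Hlf at 0.43 ± 0.13, had an unadjusted p under 0.05. Of all 18065 genes, 1037 had an unadjusted p under 0.05 at 16 h in edgeR. The edgeR calls on the 4 genes came to 7 over the 7 comparisons.

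**Figure D2:**
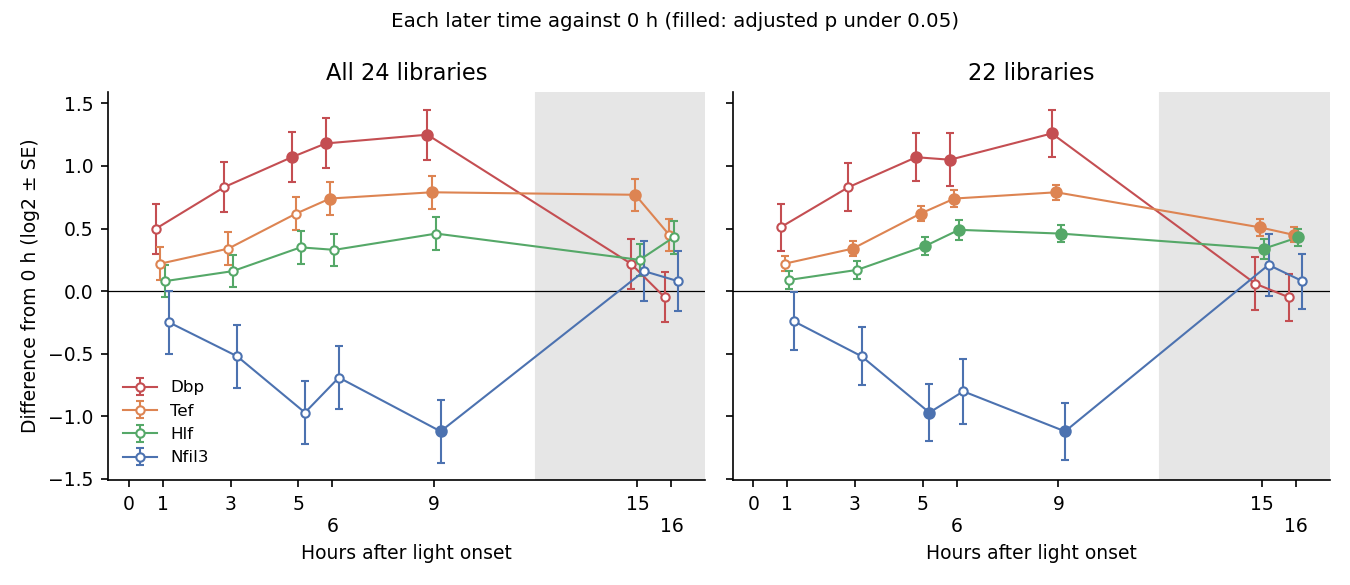
Log2 difference of each gene from 0 h with its SE (vertical axis) against hours after light onset, for all 24 libraries at left and for 22 libraries at right, with filled points for an adjusted p under 0.05 and the dark phase in grey. With 22 libraries the SE of Tef at 9 h was 0.06 in place of 0.13, and 16 points were filled in place of 7.

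In the 22 libraries more of the 4 genes passed against 0 h, as more of all genes did. At 1 h the count was 0, where 0.337% of all genes were called. Without adjustment 2 of the 4 had a p under 0.05 in edgeR at 1 h, as did 2417 of all 18388 genes tested. The count was 1 at 3 h (0.299% of all genes called), 4 at 5 h (2.9%), 3 at 6 h (2.35%) and 4 at 9 h (8.1%). It was 2 at 15 h (1.41%) and 2 at 16 h (2.18%), or 16 in all. Tef rose by 0.34 ± 0.06 on the log2 scale at 3 h (adjusted p = 0.0178) and was called at every time from then on. Hlf rose by 0.36 ± 0.07 at 5 h (adjusted p = 0.00642), by 0.46 ± 0.07 at 9 h (adjusted p = 0.000303) and by 0.43 ± 0.07 at 16 h (adjusted p = 0.00155). Nfil3 fell by 0.97 ± 0.23 at 5 h (adjusted p = 0.0208) and by 1.12 ± 0.23 at 9 h (adjusted p = 0.00443). Starting from 24 libraries, the count of calls was 2 without 0 h mouse 1 or 2, 3 without 6 h mouse 2 and 11 without 15 h mouse 3.

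The summed level of rod photoreceptor transcripts was highest at 0 h. Over 8 rod markers it was 262 to 1870 CPM in the 21 later libraries and 2120 to 3430 CPM in the 3 libraries of 0 h. Of these 8 genes 0 were called for variation between the 8 times, with 24 libraries or with 22. A 24 h component was called for 2 of them with 24 libraries and 3 with 22, against 1.67% and 6.12% of all genes. The part of rod transcripts in the differences from 0 h was not tested. Between night and day the rod sums overlapped, at 262 to 1840 CPM at night and 280 to 1870 CPM by day.

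Ratios of read counts within a library do not depend on how libraries are scaled, and are given as a description without a test and without correction for gene length. The log2 ratio of Dbp over Nfil3, an activator over the repressor of the same element, averaged 3.58 ± 0.85 at 0 h, 4.34 ± 0.38 at 1 h, 4.99 ± 0.51 at 3 h, 5.63 ± 0.19 at 5 h, 5.50 ± 0.39 at 6 h, 5.99 ± 0.45 at 9 h, 3.64 ± 0.36 at 15 h and 3.46 ± 0.14 at 16 h (SD, n = 3 each). Dbp thus had 11.9 times the reads of Nfil3 at 0 h, 63.5 times at 9 h and 12.5 times at 15 h. The night values, 3.34 to 4.05, overlapped those of 1 h, 3.94 to 4.71, and lay below all those of 3 h to 9 h.

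The activators also changed relative to each other. The log2 ratio of Dbp over Tef averaged -0.84 ± 0.43 at 0 h, -0.30 ± 0.16 at 3 h, -0.33 ± 0.10 at 9 h, -1.32 ± 0.15 at 15 h and -1.30 ± 0.14 at 16 h. All 6 night values, -1.48 to -1.13, lay below all 15 day values, -0.72 to -0.11. Dbp reads thus came to 0.400 of those of Tef at 15 h and 0.794 at 9 h. The log2 ratio of Tef over Hlf varied less, between 1.56 and 2.05 in the 22 libraries, while 6 h mouse 3 had 2.44 and 15 h mouse 3 had 2.78.

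Fitted peak hours separated Dbp from the other activators. The peak of Tef came 2.8 ± 0.6 h and that of Hlf 3.1 ± 1.0 h after that of Dbp (jackknife SE over 24 libraries), and in the 22 libraries the delays were 2.3 ± 0.3 h and 3.3 ± 0.6 h. The peaks of Hlf and Tef differed by 0.4 ± 1.3 h with 24 libraries and 1.0 ± 0.5 h with 22. Nfil3 peaked 11.9 ± 0.4 h after Dbp, close to opposite in a 24 h day, and 9.1 ± 0.8 h after Tef. No test was made of these differences. The hours from 9 h to 15 h and those past 16 h were not sampled. The peaks of Tef, Hlf and Nfil3 lie in them and rest on the assumed cosine, an error outside the SE.

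**Figure D3:**
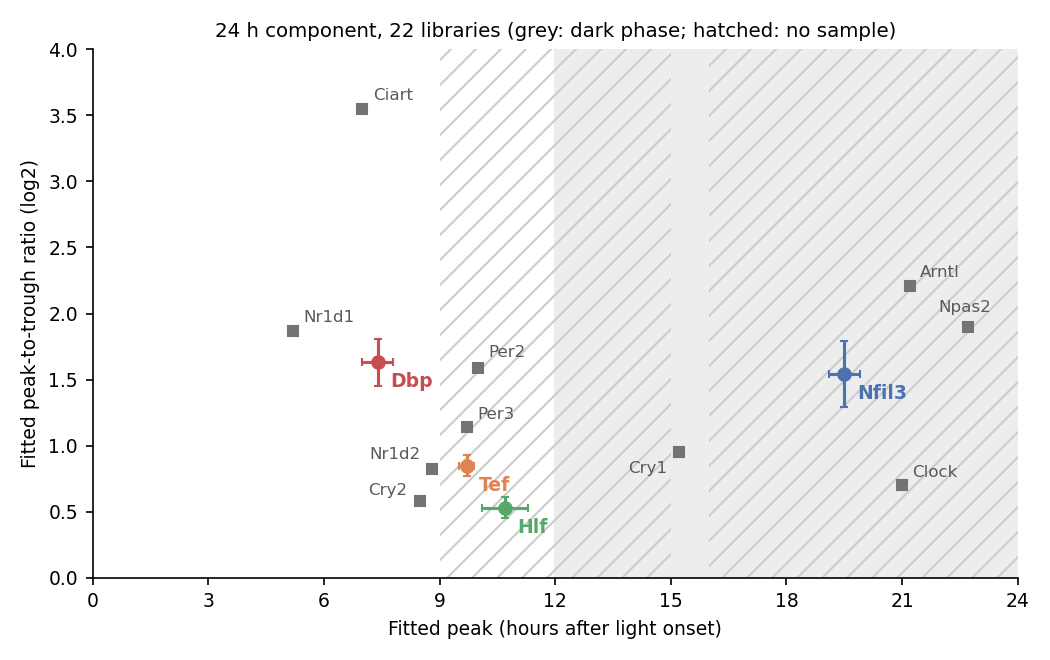
Fitted log2 peak-to-trough ratio (vertical axis) against fitted peak hour (horizontal axis) of the 24 h component in 22 libraries, with jackknife SE for the 4 genes (circles) and without for 10 of the 11 called genes of the clock loop (squares), the dark phase in grey and unsampled hours hatched. The peak hour of Dbp, 7.4 h, lies next to that of Ciart, whose ratio is higher, Tef and Hlf peak near the hours of Per2 and Per3, and Nfil3 peaks at 19.5 h.

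The genes with the most similar pattern were named by Pearson r of log2 CPM over the 22 libraries, among the 11997 genes that averaged 5 CPM or more. These r describe the libraries and have no p, since libraries of a time share that time and both genes share each library's scaling. Dbp was most like Ciart, a repressor of the clock loop (r = 0.94, and 0.93 over 24 libraries), followed by Gstt2 (0.89), Ddx39b and Scarb1 (0.88 each), for which the r over 24 libraries was 0.40, 0.46 and 0.56. It ran most opposite to Syne1 (-0.92), Dcaf10 and Osgin2 (-0.89 each), and over 24 libraries these r were -0.43, -0.67 and -0.89. Tef was most like Per3 (0.95), Per2 (0.94), Nr1d2, Rere and Gzmm (0.89 each), and ran most opposite to Arntl (-0.93), Adcy1 (-0.90) and Cmtm6 (-0.89). With 24 libraries the r of Tef was 0.17 with Per3, 0.42 with Per2, 0.22 with Nr1d2, -0.03 with Rere and 0.77 with Gzmm. It was -0.83 with Arntl, -0.91 with Adcy1 and -0.84 with Cmtm6.

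Hlf was most like Tef (r = 0.89), then Per2 (0.88), Slco1a5, Maco1 (0.87 each) and Gab2 (0.86), and ran opposite to Rinl (-0.82) and Npas2 (-0.80). Nfil3 was most like Pi4k2a (0.87), Arhgap10, Sec14l1 (0.85 each), Rras2 (0.83) and Pex26 (0.82), and most opposite to Tmem8b (-0.92), to Dbp itself (-0.87) and to Ciart (-0.86). Among the 4 genes, Dbp and Tef had an r of 0.68 and Dbp and Hlf of 0.40. Over 24 libraries the r of Tef and Hlf was 0.51 and that of Dbp and Nfil3 was -0.82. In that set Hlf had an r of 0.71 to 0.82 with Per2, Slco1a5, Maco1 and Gab2, -0.66 with Rinl and -0.44 with Npas2. Nfil3 had 0.69 to 0.83 with the 5 genes most like it, -0.66 with Tmem8b and -0.83 with Ciart.

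The clock loop was measured in the same libraries, as 16 genes of activators and repressors. A 24 h component was called for 9 of the 16, against 1.67% of all genes. Among the 9 were Arntl, Ciart, Cry1, Cry2, Npas2, Nr1d1, Nr1d2 and Per2. The median log2 peak-to-trough ratio was 1 over the list and 0.33 over all genes tested. Arntl, whose product activates Dbp, peaked at 21.2 h and Npas2, a partner of that product, at 22.7 h. Nr1d1, a repressor of Nfil3, peaked at 5.0 h with a log2 ratio of 1.93 (adjusted p = 1.66e-07), and Nr1d2, its paralog, at 8.2 h with 0.83 (adjusted p = 0.00907). Clock had an adjusted p of 0.0933 with 24 libraries and was called with 22.

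At night against day 5 of the 16 clock loop genes were called, 3 higher and 2 lower, against 1.39% of all genes. The list median was -0.15 and the median over all genes -0.01. Nr1d1 fell by 1.69 ± 0.12 on the log2 scale (adjusted p = 8.21e-08) and Ciart by 2.30 ± 0.20 (adjusted p = 1.37e-06), the same direction as Dbp. Rora and Rorb, candidate activators at RORE sites, differed by 0.09 ± 0.08 and 0.08 ± 0.09 and were not called. Among the genes called higher, Cry1 rose by 0.78 ± 0.08 and Arntl by 0.45 ± 0.09 (adjusted p = 5.23e-06 and 0.0109).

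Genes known as targets of PAR bZIP factors in liver, kidney, brain or pituitary were examined as a list of 15, of which 10 were expressed enough to be tested. A 24 h component was called for 2 of the 10, against 1.67% of all genes, with a list median log2 ratio of 0.33, equal to that of all genes. With 22 libraries 4 of the 10 were called, Fgf21, Pdxk, Por and Ppara, against 6.12%. In that set Pdxk peaked at 13.9 h with a log2 ratio of 0.24 (adjusted p = 0.0386). Ppara peaked in the dark phase at 18.7 h with a log2 ratio of 0.71 (adjusted p = 0.0112). Por, the reductase that supplies electrons to cytochrome P450 enzymes, peaked at 9.3 h with a log2 ratio of 0.61 (adjusted p = 0.0448), and at 8.5 h with 22 libraries, between Dbp at 7.4 h and Tef at 9.7 h. Fgf21, a metabolic hormone that in liver responds to several signals, peaked at 19.2 h with a log2 ratio of 3.59 (adjusted p = 0.0111), near the peak of Nfil3. Fgf21 was close to the limit of detection, at 1.91 ± 0.652 CPM at 15 h and 0.122 ± 0.106 CPM at 9 h (SD, n = 3).

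For variation between times edgeR called 0 of the 10 targets with 24 libraries, where limma-voom called 0, DESeq2 called 2, and 2 passed 0.05 in edgeR without adjustment. Of all 18065 genes tested, edgeR called 195, limma-voom 177 and DESeq2 1930, and 3070 passed 0.05 in edgeR without adjustment. With 22 libraries edgeR called 5 of the 10, Abcb1a, Fgf21, Pdxk, Por and Ppara, against 15.6% of all genes. At night against day 1 of 10 was called, Fgf21 at 2.14 ± 0.40 (adjusted p = 0.00692), against 1.39% of all genes, and with 22 libraries 4 were, which added Pdxk, Por and Ppara, against 4.63%. In those 22 libraries Por was lower at night, at -0.19 ± 0.05 on the log2 scale. Pdxk was higher, at 0.17 ± 0.05, and so was Ppara, at 0.47 ± 0.11. Pdxk, the kinase that makes the active form of vitamin B6, had 70.4 ± 1.03 CPM at 15 h without mouse 3 (n = 2), against 64.9 ± 1.86 CPM at 9 h (SD, n = 3). With mouse 3, which had 5.86 CPM, the 15 h mean was 48.9 ± 37.3 CPM (n = 3), below that of 9 h. Pdxk was not called at 15 h against 9 h by edgeR, with 22 libraries (adjusted p = 0.614) or with 24 (adjusted p = 0.658). Alas1, Acot1, Acot2, Eya3 and Cyp2a5 were called in none of these 3 comparisons with either set of libraries.

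C/EBP factors, bZIP proteins that can bind related elements, were a list of 5 with 4 tested. With 24 libraries edgeR called 0 of the 4 for variation between times (1 with an unadjusted p under 0.05), for the 24 h component (1) and at night against day (2). Of all 18065 genes tested, 3070, 2913 and 3211 had an unadjusted p under 0.05 in these 3 comparisons. DESeq2 called 1 of the 4 for variation between times, against 10.7% of all genes, and 0 in the other comparisons. With limma-voom 0 were called in all 3. In the 22 libraries Cebpa, Cebpb and Cebpd varied between times, 3 of 4 against 15.6% of all genes, and Cebpd was higher at night, 1 of 4 against 4.63%. Cebpd had 33.7 ± 5.55 CPM at 0 h, 64.6 ± 12.7 CPM at 9 h (SD, n = 3 each) and 68.8 ± 2.93 CPM at 15 h without mouse 3 (n = 2). With mouse 3 its 15 h mean was 83.1 ± 24.9 CPM (n = 3).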

How the data were processed

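Per the labels' protocols, the RNA-seq libraries of mouse RPE came from a kit without strand marking. The authors deposited counts of reads per gene that they had not normalized, 1 column per mouse, with gene coordinates and lengths. STAR, HTSeq and mm10 are named in the submitters' processing notes. Their roles and versions, the annotation and any filter are not given in the sources used here. For the 4 genes the table's coordinates and exon lengths equal those of GENCODE vM21.

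Of 54532 genes, 18065 passed filterByExpr (minimum count 10) and held 99.92% of the counts. Counts were scaled by TMM and tested with edgeR 4.0.16 (R 4.3.3; glmQLFit with robust priors, glmQLFTest), with Benjamini-Hochberg adjustment over all genes tested and a call at an adjusted p under 0.05. The fits were an F test over 8 time means, an F test of a 24 h cosine and sine, and contrasts of times. The fit across genes was checked on simulated data. All libraries share 1 estimate of spread, so a time with 2 mice is assumed to vary like the others. Alternatives were DESeq2 1.42.0, limma-voom (limma 3.58.1), other scalings and filters, 22 libraries, and each library left out. Likeness used log2 CPM with a prior count of 2, and within-library ratios a prior of 0.5. Figures used matplotlib 3.10.9 in Python 3.11.15.

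The 3 libraries of a time are separate mice per the labels, and none of 276 pairs of libraries differed by less than sampling noise (lowest chi-square per degree of freedom 5.85). The 4 genes, the gene lists and the comparisons were chosen with earlier results of these data known. The text names the 4 genes, list members called in any comparison, regulators of the 4 genes, and for each the 5 most similar and 3 most opposite genes. A few genes that this rule would name are not reported here. Pdxk and Cebpd levels and Sphk2 were added after their values were seen.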

Additional observations from a re-analysis of the deposited data

Results flagged for a closer look

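Tef at night had 1 library far from the other 5. The 15 h mouse 3 had 643 CPM, and the next highest of the 6 night libraries had 414 CPM. The gap was 0.816 of the whole range, above Dixon's 95% critical value for 6 samples, which chance passes in about 1 of 20 groups. The same library had the lowest Hlf level of the 6, 93.3 CPM, and the highest Dbp level, 230 CPM, but neither passed that limit. It also had 6.02% ribosomal protein reads, against 1.28% to 1.86% in the 22 libraries other than itself and 6 h mouse 3, and whether these go together was not tested.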

How the results depend on the processing

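The calls on Dbp, Tef and Nfil3 for a 24 h component held under all 35 alternatives run, with adjusted p of at most 0.00107, 0.0236 and 0.029. Those on Dbp and Nfil3 at night against day held under all 33 (at most 0.00289 and 0.0169), as did those on Dbp and Tef for variation between times and at 9 h against 0 h. The Hlf 24 h component was called under 8 of 35 (up to 0.41, without 0 h). The number of member calls against 0 h was 7, but 16 with 22 libraries and 2 to 11 with single libraries left out; the members called at 15 h against 9 h numbered 2, and 0 to 2 with single libraries left out. With DESeq2 1930 of all genes varied between times, against 195 with edgeR, and 763 against 302 had a 24 h component, while 22 libraries gave 2870 and 1126. With no filter on low counts 143 genes were called at night against day, in place of 251, and 61 at 9 h against 0 h, in place of 135. Signs turned for differences near 0 that were never called or were called in 1 setting: Tef at night against day had an adjusted p of 0.447 with 22 libraries, 0.328 to 0.865 with single libraries left out, Tef at 15 h against 9 h 0.131 to 0.994, Dbp at 15 h against 0 h 0.192 to 0.96, Dbp at 16 h 0.964 to 1 and Nfil3 at 16 h 0.955 to 1. The cause was not tested. Depth limits Nfil3, with at most 292 reads a library.

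Replicate numbers were not taken to pair the mice, since the labels give no shared litter or day and not every pair deviated together: same-numbered libraries of different times had a median correlation of deviations of 0.02 over 84 pairs, 17 of them above 0.1, against -0.01 for other pairs, while 14 of 24 libraries correlated best with their own number, a hint from the data and not from the design. With the replicate block 143 of all genes varied between times and 266 had a 24 h component, and adjusted p was 0.0538 for Dbp at 5 h, 0.0672 for the Hlf 24 h component, 0.0517 for Nfil3 between times and 0.0566 for Nfil3 at 9 h. With 22 libraries and the block, added after seeing the data, member calls against 0 h numbered 16 and adjusted p was 0.499 for Tef at night against day and 0.0736 for Tef at 15 h against 9 h, which 22 libraries without the block called.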
